A study of Mus musculus with 12 samples.

Results

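The genes described here are 9 transcripts that mark naive and memory T cells and their exit from division: Foxo1, Klf2, Tcf7, Lef1, Bach2, Id3, Ccr7, S1pr1 and Il7r. They were chosen by name, for their roles, with earlier results of these data known. Read by symbol from a table of 18929 rows of gene symbols, all 9 were found. All 9 also passed the filter on low values, which left 12699 genes for testing. The data are RNA-seq of mouse T cells of strain C57BL/6, cultured under T helper 1 (Th1) conditions for 5 days and then sorted. The comparison set 3 libraries of genotype Sdhc cKO against 3 control libraries of genotype WT. Sdhc encodes a subunit that anchors succinate dehydrogenase (complex II) in the inner mitochondrial membrane, and cKO stands for conditional knockout. The labels do not name the driver of the deletion or say whether replicates were separate animals, so p-values measure the spread between these libraries only. The series also has 3 groups of 2 samples each (genotypes 25a1 KO, titled Slc25a1, 25a11 KO, titled Slc25a11, and EV Transduced (WT)), which were not analysed here.

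In GENCODE M21 (GRCm38) Foxo1 lies at chr3:52268336-52353221 on the plus strand, Klf2 at chr8:72319033-72321656 (plus) and Tcf7 at chr11:52252371-52283014 (minus). Lef1 lies at chr3:131110471-131224356 (plus), Bach2 at chr4:32238804-32586108 (plus) and Id3 at chr4:136143497-136145755 (plus). Of the receptor genes, Ccr7 lies at chr11:99144196-99155077, S1pr1 at chr3:115710433-115715072 and Il7r at chr15:9505788-9530176, all on the minus strand. Values are counts over whole genes.

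These genes share a circuit. FOXO1 is a transcription factor that is active when PI3K and AKT signalling is low, and it promotes transcription of Klf2, Il7r and Ccr7. KLF2 in turn promotes S1pr1, whose product lets T cells leave lymph nodes along a gradient of sphingosine 1-phosphate, while CCR7 brings them in along its chemokine ligands. TCF1 (the product of Tcf7) and LEF1 are related DNA-binding proteins of naive and memory cells. BACH2 represses effector genes, and ID3 blocks DNA binding by E proteins. IL7R is the alpha chain of the receptor for interleukin-7, a survival signal of resting T cells. Effector differentiation is known to lower many of these transcripts.

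Klf2 stands between FOXO1 and S1pr1 in that circuit, and the sequence before its start is shown for this reason. It is 221 bases of GRCm38.p6 from RefSeq, plus strand, chr8:72318812-72319032, and it ends before the first annotated exon. Capitals mark its 1 match to a MEF2-type site, the letters CTA and TAG with any 4 bases between them, a motif picked after the sequence had been read.
Klf2: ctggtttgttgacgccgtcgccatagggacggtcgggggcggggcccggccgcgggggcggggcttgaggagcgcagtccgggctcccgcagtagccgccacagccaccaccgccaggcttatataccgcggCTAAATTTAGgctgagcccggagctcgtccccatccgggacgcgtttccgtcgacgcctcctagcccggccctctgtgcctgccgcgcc
RefSeq windows were found for 7 of the 9 genes, with 11 start sites. In the 250 bases before a start, on either strand, the MEF2-type letters were present in 3.20% of all windows and before 1 start of the 9 genes, that of Klf2. The KLF-type letters CACCC were present before 8 of the 11 starts and in 52.0% of all windows. These 8 starts were those of Lef1, Tcf7, Id3 and Klf2 only. Lef1 and Tcf7 have more than 1 start each, and some windows of Lef1 overlap and share their matches. The 8 starts are therefore not separate genes and cannot be set against the share of all windows. The forkhead letters GTAAACA, the TCF/LEF letters CTTTGAT and the AP-1 and BACH2 core TGANTCA were before none of the 11, and in 3.17%, 3.21% and 6.75% of all windows.

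The libraries held 18144933 to 21983821 counted reads, and the 9 genes had 313 to 7452 reads each per library. Sdhc, the targeted gene, had 1452, 1562 and 1655 normalised counts in cKO libraries 1, 2 and 3, against 1683, 1603 and 1892 in the controls, and the groups overlapped (log2 fold change -0.15, SE 0.09, limma adjusted p = 0.978). Counts per gene do not resolve a deleted part of a gene, so this does not check the labels. Libraries numbered 1 in both groups stood apart from the other 4 on the first principal component, which held 49.1% of the variance. Xist, which coats the inactive X, was 7565, 0 and 2.15 normalised counts in the cKO libraries and 9780, 2490 and 6406 in the controls, so sex-linked RNA was unevenly spread over both groups. The abundant transcript Gm26917 had 1230959 to 1280038 normalised counts in cKO and 1028687 to 1194037 in control libraries, without overlap, and its part in the values below was not tested. The T cell label held: Cd4 had 10681 to 11045 normalised counts in cKO and 10113 to 10944 in control libraries, and Cd3e 8632 to 10046 and 8618 to 9761. In bulk RNA, fewer cells that express a gene and less of its RNA per cell cannot be told apart.

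All 9 genes were transcribed in these Th1 cells in both groups. Per kilobase of annotated exon, Tcf7 stood highest, with mean levels of 2433 normalised counts per kilobase in cKO and 2482 in control cells, above 97.5% in either group of the 11959 tested genes with a known length. Ccr7 came next, at 1776 and 1626 per kilobase, and its libraries did not overlap with those of Tcf7. Klf2 (828 and 769) and S1pr1 (796 and 689) followed and overlapped with each other in both groups. Lef1 (675 and 658) overlapped with S1pr1 in the controls but not in cKO cells, and with Klf2 in neither. Il7r averaged 493 per kilobase in cKO and 527 in control cells and overlapped with Lef1. Foxo1 lay lower, at 416 and 405, without overlap with Il7r in either group. Id3 (206 and 200) and Bach2 (188 and 170) were the lowest and overlapped with each other, yet the mean of Bach2 was still above 65.3% of tested genes in cKO and 62.2% in control cells. These levels use the union of exons of GENCODE M21, which can exceed the isoform a cell makes, so they rank genes only roughly.

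Between genotypes the 9 genes differed little. None was called by limma on genotype alone at an adjusted p of 0.05, where 0% of the 12699 tested genes were. None was called by the other tests either, among them DESeq2, which called 0.0157% of tested genes, and 3 fits that called 0.00787% each (array weights, and limma and edgeR with the replicate number as a block). With DESeq2, array weights, and the block in limma and edgeR, 1, 2, 1 and 3 of the 9 had an unadjusted p under 0.05. S1pr1 was among them each time, and of all tested genes 292, 970, 1596 and 1515 had one. With limma on genotype alone none of the 9 had one, where 445 of all tested genes did (3.5%). Of the 9, 7 had positive log2 fold changes (cKO over control) and 2 negative ones, with a median of 0.06, while 45.9% of all tested genes were positive and their median was -0.01. The individual values ran from -0.10 to 0.21. Their 95% intervals, not adjusted for the number of genes, together spanned folds of 0.711 to 1.34.

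**Figure D1:**
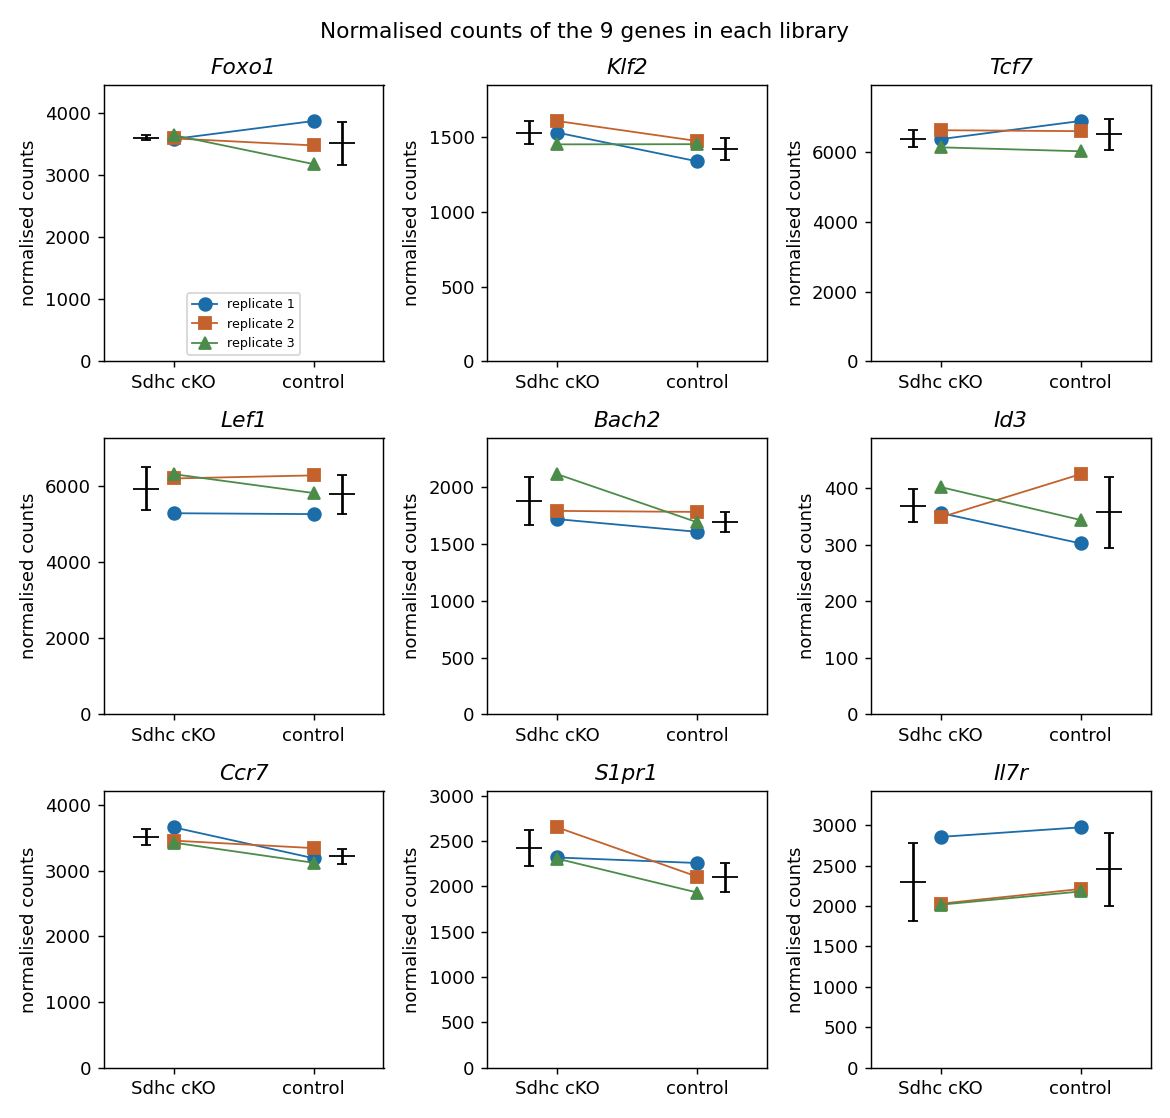
Normalised counts of the 9 genes (vertical axes from 0) in the Sdhc cKO libraries (left of each panel) and the control libraries (right). Points and lines join libraries of the same replicate number, and black bars give the mean and SD of each group (n = 3). S1pr1 and Ccr7 show no overlap between groups, and the replicate 1 libraries stand alone for Il7r and Lef1.

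Among the transcription factors, Foxo1 had 3582, 3593 and 3645 normalised counts in cKO libraries 1, 2 and 3, against 3873, 3479 and 3179 in controls 1, 2 and 3. The cKO libraries lay close together and inside the range of the controls. The means were 3607 ± 33.6 in cKO and 3511 ± 348 in control cells (SD, n = 3 each), which put the log2 fold change at 0.04 with an SE of 0.09. Foxo1 was not called (limma adjusted p = 0.984).

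Klf2, the factor that keeps lymphocytes quiescent and recirculating, had 1530, 1607 and 1451 normalised counts in cKO, against 1337, 1473 and 1452 in control libraries. The groups overlapped through cKO 3, which lay below controls 2 and 3. Klf2 averaged 1529 ± 78.1 in cKO and 1421 ± 73.0 in control cells, with 0.11 as its log2 fold change (SE 0.08) and an adjusted p of 0.978 by limma. Mef2d, a MEF2 factor of the kinase route that acts on Klf2, averaged 1769 ± 246 in cKO and 1662 ± 161 in control cells.

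Tcf7 had 6381, 6637 and 6145 normalised counts in cKO and 6902, 6610 and 6032 in control libraries, with each cKO value inside the control range. Its log2 fold change was -0.03 with an SE of 0.08 (adjusted p = 0.988 by limma), which turned to 0.02 with upper-quartile scaling. Lef1 had 5285, 6198 and 6311 in cKO and 5262, 6279 and 5815 in control libraries. For Lef1 the library numbered 1 was the lowest of each group and the groups overlapped almost fully, at 0.04 for the log2 fold change with an SE of 0.10 (adjusted p = 0.988 by limma).

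Bach2 had 1715, 1788 and 2110 normalised counts in cKO, against 1604, 1779 and 1688 in control libraries. The highest value was that of cKO 3, and the other cKO libraries lay inside or close to the control range. Bach2 averaged 1871 ± 210 in cKO and 1690 ± 87.4 in control cells, and its log2 fold change was 0.14 with an SE of 0.10 (adjusted p = 0.978 by limma). Without cKO 3 it was 0.05. Id3, the least abundant of the 9 in counts, had 357, 349 and 403 in cKO and 303, 425 and 344 in control libraries. These groups overlapped widely, and the log2 fold change was 0.06 with an SE of 0.14 (adjusted p = 0.988 by limma).

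Of the receptors, S1pr1 differed most. It had 2319, 2652 and 2306 normalised counts in cKO libraries, against 2258, 2108 and 1933 in control libraries. Every cKO value lay above every control value, though cKO 3 and control 1 were near each other. The means were 2426 ± 196 and 2100 ± 163 (SD, n = 3 each), so that S1pr1 in cKO cells was at 116% of its control level. On the log2 scale this was 0.21 with an SE of 0.09 and a 95% interval of -0.0023 to 0.42. S1pr1 did not pass over all genes (limma adjusted p = 0.978). The 2-sided exact permutation p was 0.1, the smallest that 3 against 3 allows.

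Ccr7 had 3659, 3456 and 3426 normalised counts in cKO and 3189, 3342 and 3119 in control libraries, again with no overlap. Ccr7 averaged 3514 ± 127 in cKO and 3217 ± 114 in control cells, or 109% of the control level. Its log2 fold change was 0.13 with an SE of 0.07 and a 95% interval of -0.03 to 0.28. The adjusted p was 0.978 by limma and the exact permutation p again 0.1. S1pr1 and Ccr7 were the 2 of 9 genes without overlap, both with cKO above control. Over all tested genes that arrangement held for 4.51%, the reverse for 5.64%, and either for 10.2%. Both stayed without overlap under TMM, library-total and upper-quartile scaling, and upper-quartile scaling added Klf2 and Bach2. That scaling moved the whole table too, to 6.72% of tested genes with cKO above control and 3.26% with cKO below.

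Il7r had 2855, 2029 and 2017 normalised counts in cKO and 2974, 2211 and 2180 in control libraries. The library numbered 1 was far above the other 2 in each group, and within each number the cKO value was the lower. Il7r averaged 2300 ± 481 in cKO and 2455 ± 450 in control cells, and its log2 fold change of -0.10 had an SE of 0.17 (adjusted p = 0.984 by limma).

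**Figure D2:**
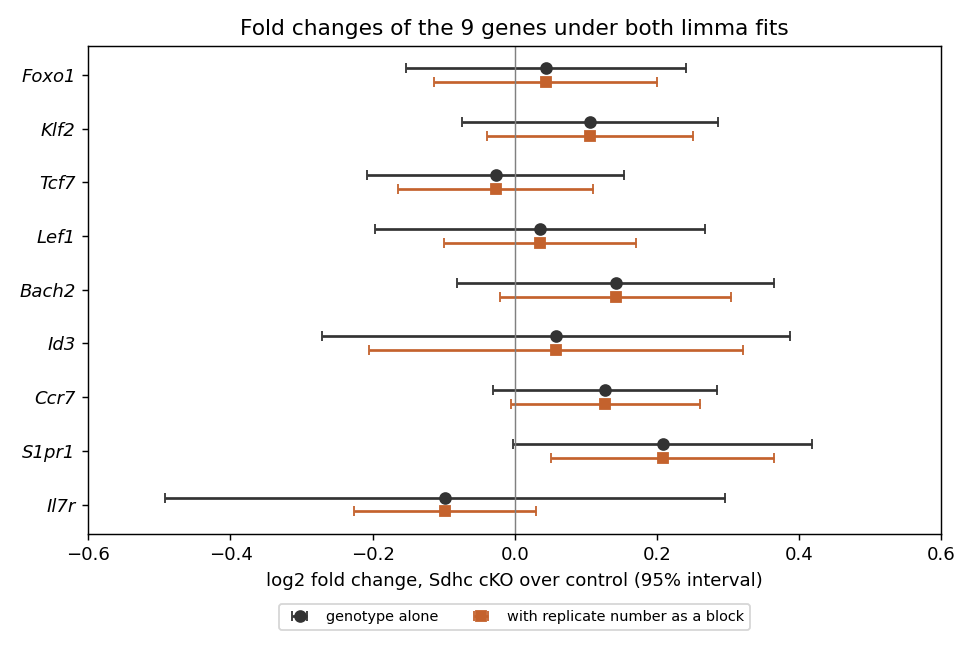
Log2 fold changes (horizontal axis, cKO over control, log2(value + 1) scale) of the 9 genes with 95% intervals from limma on genotype alone (circles) and with the replicate number as a block (squares). All intervals on genotype alone include 0, and with the block the interval of S1pr1 does not (0.05 to 0.36).

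The variation of each gene over the 6 libraries was split by genotype, which has 1 of the 5 degrees of freedom, and by replicate number, which has 2 and so takes a larger share of unstructured variation. The libraries numbered 1 were also those with almost no Y-linked reads, at 0.207 RPM in cKO 1 and 0.0480 RPM in control 1, against 189 and 193 RPM in the other cKO and 55.1 and 131 RPM in the other control libraries. Replicate number 1 and sex-linked RNA therefore cannot be told apart here. Within numbers 2 and 3 sex-linked RNA differed between genotypes too. There Xist was 0 and 2.15 normalised counts in cKO 2 and 3, against 2490 and 6406 in controls 2 and 3. Genotype and sex-linked RNA therefore cannot be told apart within these numbers either. Of the sum of squares of Il7r over the 6 libraries, 94.9% lay between replicate numbers and 4.72% between genotypes. For Lef1 these shares were 90.4% and 2.50%, and for Tcf7 74.8% and 4.02%. The order was the other way for Ccr7, with 13.9% between numbers and 69.9% between genotypes, for S1pr1 (24.3% and 55.9%) and for Klf2 (31.8% and 43.2%). Bach2, Foxo1 and Id3 had 38.2% to 38.8% between numbers. Over all tested genes the median share was 57.0% between numbers and 12.1% between genotypes. Il7r and Lef1 thus had larger shares between numbers than 96.0% and 90.4% of tested genes, in opposite directions: Il7r was highest and Lef1 lowest in the libraries numbered 1.

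**Figure D3:**
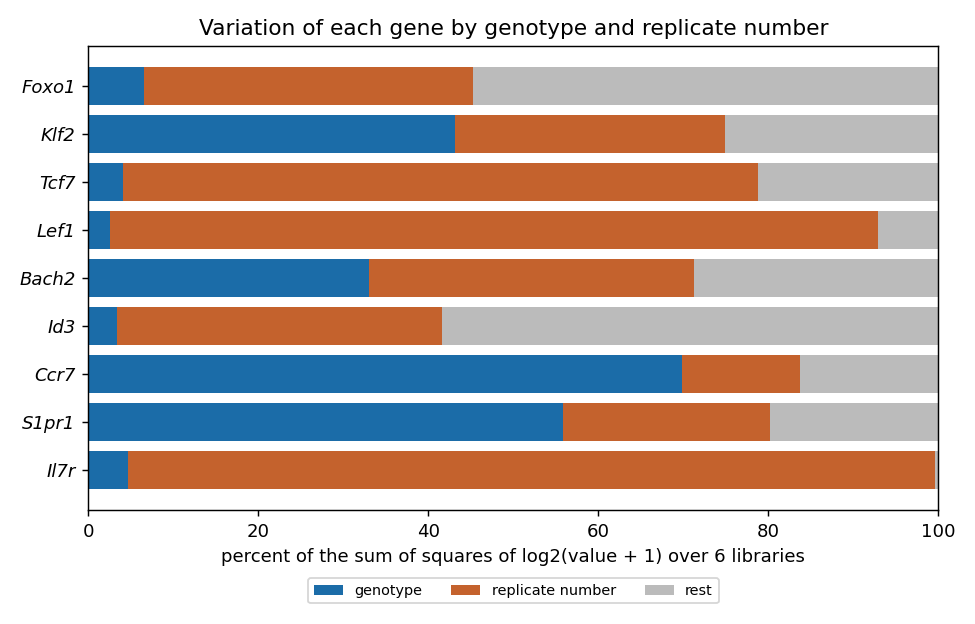
Share of the sum of squares of log2(value + 1) over 6 libraries (horizontal axis, percent) between genotypes, between replicate numbers and in the rest, for each of the 9 genes. Il7r and Lef1 vary almost wholly with the replicate number, and Ccr7 and S1pr1 mostly with genotype.

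Set within same-numbered libraries, S1pr1 was higher in cKO by 0.04, 0.33 and 0.25 on the log2 scale for numbers 1, 2 and 3, Ccr7 by 0.20, 0.05 and 0.14, and Bach2 by 0.10, 0.0071 and 0.32. These 3 genes were higher in cKO in all 3 pairs, an arrangement found for 14.6% of tested genes. Il7r alone of the 9 was lower in all 3, with differences of -0.06, -0.12 and -0.11, as 21.8% of tested genes were. With the number as a block none of the 9 passed either (limma adjusted p = 0.319 to 0.885). S1pr1 then had an unadjusted p of 0.0149, beside 12.6% of all tested genes with one under 0.05. The block does not remove the difference in sex-linked RNA between genotypes within numbers 2 and 3.

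Without control 1 and cKO 1, the libraries that stood apart, the log2 fold change of S1pr1 was 0.29 (limma adjusted p = 0.673), of Ccr7 0.09 (0.764) and of Il7r -0.12 (0.705). In that comparison of 2 against 2, limma called 0.0236% of the tested genes and none of the 9. The libraries left in it differed in sex-linked RNA between genotypes. With the share of Y-linked reads as a covariate the values for S1pr1 and Ccr7 were 0.19 and 0.14 (limma adjusted p = 0.180 and 0.188), and none of the 9 passed where 6.5% of tested genes did. Il7r was 0.08 with that covariate and so turned round. The part of sex-linked differences in these values was not tested further.

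Other genes of the pathways were read from lists chosen with earlier results of these data in view. No gene of these lists passed on genotype alone (limma). In the IL-7 receptor list 9 of 12 tested genes had positive log2 fold changes and the median was 0.04. Jak1, a kinase of the receptor, had 0.03 (SE 0.08), and Bcl2, the survival gene induced by IL-7, 0.08 (SE 0.07). Of all tested genes 10.2% had groups without overlap, as had several genes of the lists. Some of these list genes, not all, are named below for that reason, and so were picked after their values had been seen. In the IL-7 receptor list they were Jak3, the kinase bound to the common gamma chain, with means of 3526 ± 150 in cKO and 4125 ± 272 in control cells (log2 fold change -0.22, SE 0.08), Stat5a (-0.24, SE 0.08) and Cish, a feedback inhibitor of cytokine signals (0.14, SE 0.06). The limma adjusted p was 0.978 for each of these 3.

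The list of the S1P axis held 9 tested genes, 4 of them positive, with a median of -0.0027. Gnai2, the G protein subunit that chemokine and S1P receptors use, had a log2 fold change of -0.03 (SE 0.09). Cd69, whose product pulls S1PR1 from the cell surface, was picked for that role after its values had been seen, and averaged 913 ± 195 normalised counts in cKO and 885 ± 179 in control cells. The groups did not overlap at Sgpl1, the S1P lyase, at 1106 ± 66.9 and 990 ± 15.6 (log2 fold change 0.16, SE 0.08, limma adjusted p = 0.978). Of 10 tested lymph node homing genes 6 were positive and the median was 0.02, with Itgal, a chain of the integrin LFA-1, at -0.10 (SE 0.08). Receptors for homing to tissues had 9 of 12 negative values and a median of -0.13. Among them Itgae, the integrin chain CD103, had the largest positive fold change of all lists, 89.8 ± 14.7 in cKO and 49.6 ± 1.27 in control cells (log2 fold change 0.83, SE 0.18, limma adjusted p = 0.978).

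Regulators and targets of FOXO factors had 15 of 21 positive values and a median of 0.04. Foxp1, a factor that maintains quiescence, stood at 0.04 (SE 0.10) and Btg1, which restrains growth, at 0.08 (SE 0.13). Cofactors and targets of TCF1 and LEF1 had 5 of 13 positive and a median of -0.04, with Ctnnb1 (beta-catenin) at -0.04 (SE 0.07) and Tle3, a corepressor, at -0.05 (SE 0.08). Bcl6, a repressor that favours memory and follicular helper cells, was the 1 gene of that list without overlap, at 173, 136 and 124 normalised counts in cKO against 116, 108 and 81.4 in control libraries (log2 fold change 0.50, SE 0.20, limma adjusted p = 0.978). The KLF list, which also holds Mapk7, Mef2d and Map2k5, genes outside the KLF family, had 5 of 9 positive (median 0.02). The positive ones were Mapk7, Mef2d, Map2k5, Klf3 and Klf7, while Klf4, Klf6, Klf10 and Klf13 were negative. The quiescence list had 14 of 21 positive (median 0.03). The list of further naive and memory genes had 17 of 26 positive and a median of 0.05, with Il2rb at 0.09 (SE 0.09) and Cd28 at -0.12 (SE 0.09). Other scalings moved the median of all genes by 0.0081 to 0.04, the same order as most of these medians.

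The list that joins BACH2 partners with AP-1 and effector factors had 9 of 11 negative values (median -0.10). Its 4 most abundant genes had log2 fold changes of -0.08 (SE 0.13) for Jund and -0.18 (SE 0.11) for Junb, both AP-1 subunits, 0.09 (SE 0.08) for the Th2 factor Gata3, and -0.45 (SE 0.21) for Irf4, a driver of effector cells. Irf4 had 2113, 3482 and 3308 normalised counts in cKO and 3363, 4830 and 3816 in control libraries, which overlapped (limma adjusted p = 0.978). The list of inhibitors of DNA binding and E proteins, which also holds the receptor genes Cxcr5 and Il2ra, had 4 of 5 negative values (median -0.12). Both receptor genes were among the negative ones, with Cxcr5 at -0.27 (SE 0.29). The E protein genes Tcf12 and Tcf3 had 0.0057 (SE 0.10) and -0.11 (SE 0.09), and Il2ra, the alpha chain of the interleukin-2 receptor, -0.12 (SE 0.12). Id2, the relative of Id3 that prevails in effector cells, had 2189, 1969 and 1689 in cKO against 3382, 2147 and 2092 in control libraries, with overlap (log2 fold change -0.35, SE 0.19, adjusted p = 0.978 by limma). In the effector list 22 of 24 tested genes were negative and the median was -0.22. The 4 most abundant were Gzmb at -0.10 (SE 0.31), Lgals1 at -0.13 (SE 0.14), Il12rb2 at 0.04 (SE 0.10) and Irf8 at -0.25 (SE 0.09). Groups did not overlap for 7 genes of this list, all with cKO below control, beside 5.64% of tested genes. Irf8 and Ifng were among the 7. Ifng, the Th1 cytokine, had 868 ± 11.5 in cKO and 1382 ± 68.9 in control cells. It was not called on genotype alone (limma adjusted p = 0.265) but was with the replicate block (0.0255), and in 6 of 21 alternatives in all. No difference between these lists and the 9 genes was tested.

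**Figure D4:**
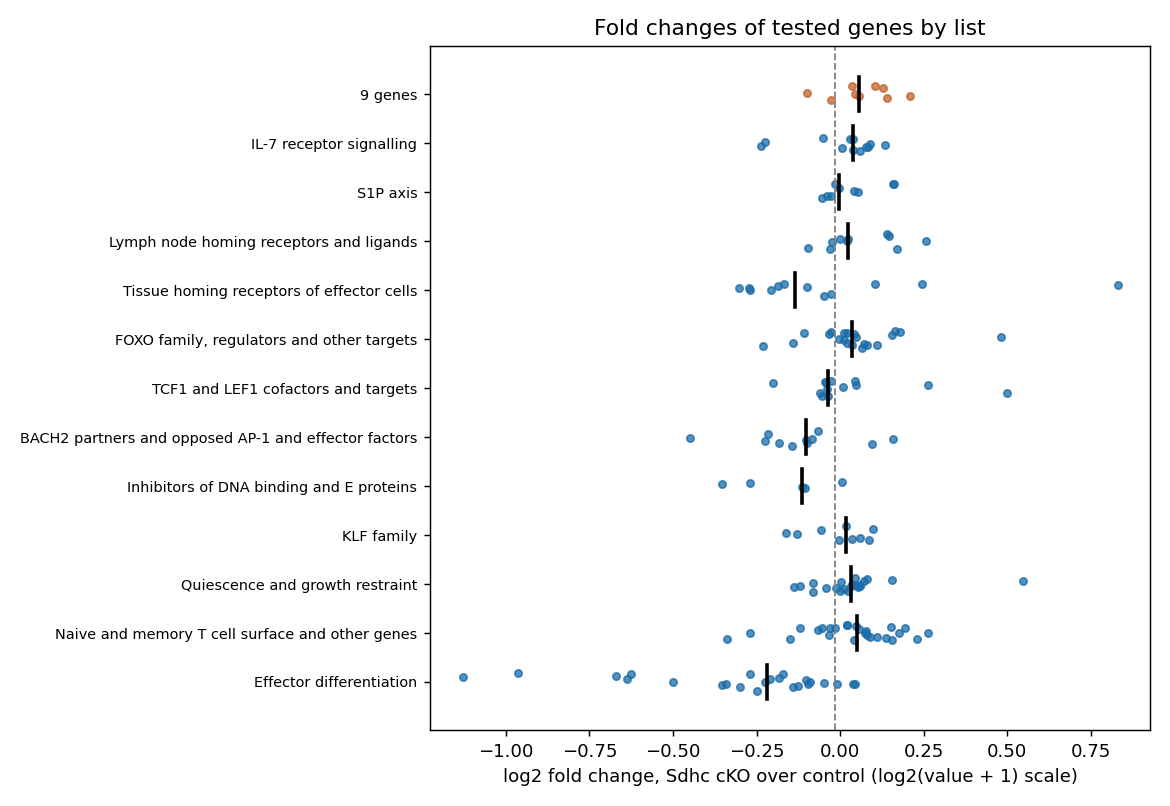
Log2 fold changes (horizontal axis, cKO over control, log2(value + 1) scale) of the tested genes in each list, with the 9 genes in orange at the top. Black bars are list medians (0.06 for the 9 genes, -0.22 for effector differentiation), and the dashed line is the median of all tested genes, -0.01.

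Ratios of a member to another gene, 6 in all, were formed after the values had been seen and carry no test, and 1 of the 6 had groups without overlap. The ratio of Bach2 to Prdm1, the gene of the effector factor BLIMP1 that BACH2 represses, was 2.14, 2.50 and 2.88 in cKO against 1.64, 2.08 and 2.10 in control libraries, without overlap. Prdm1 itself was lower in cKO without overlap (log2 fold change -0.23, SE 0.10, limma adjusted p = 0.978), while Bach2 itself overlapped. For Id3 to Id2 the ratio was 0.163, 0.177 and 0.238 in cKO against 0.0895, 0.198 and 0.165 in control libraries, which overlapped. Tcf7 to Tbx21, the gene of the Th1 factor T-bet, gave 4.65, 4.42 and 4.13 in cKO libraries. In control libraries this ratio was 4.16, 3.37 and 3.43, with a slight overlap. Tbx21 itself was lower in cKO without overlap (log2 fold change -0.30, SE 0.09, limma adjusted p = 0.978), while Tcf7 itself overlapped (-0.03, SE 0.08). S1pr1 to Cd69 gave 3.36, 2.51 and 2.33 in cKO and 3.32, 2.19 and 1.91 in control libraries, and Klf2 to Klf6 and Tcf7 to Lef1 overlapped as well. Normalised counts are not divided by length here, so only differences between libraries can be read from these ratios.

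The mean of the 9 genes, each centred on its own mean on the log2 scale, was 0.03 in all 3 cKO libraries, against -0.02, 0.02 and -0.10 in controls 1, 2 and 3. Among 10283 other genes with a mean of at least 50, the profiles most like it over the 6 libraries were those of Abcc5, a membrane transporter (Pearson r = 0.991), Rnf113a1 (0.983), Znrf1, a ubiquitin ligase (0.968), Vps37c, a subunit of the ESCRT sorting complex (0.965), and Mcfd2, a cargo receptor subunit of the secretory pathway (0.961). These are the highest of many r values over few libraries, which share size factors, and are a description only. Abcc5 had 309, 304 and 308 normalised counts in cKO and 289, 305 and 260 in control libraries.

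Other lymphocytes also transcribe several of the 9 genes, so their markers were summed per library. B cell markers summed to 1868 to 2081 normalised counts in cKO and 1644 to 1997 in control libraries, most of it Ighm, while Ms4a1, Ebf1 and Blnk each stayed under 10 in every library. The 2 CD8 genes summed to 235 to 547 in cKO and 278 to 368 in control libraries, beside 87106 to 99086 and 86989 to 89825 for the T cell markers. NK cell markers summed to 531, 211 and 222 in cKO libraries 1, 2 and 3, against 696, 281 and 370 in control libraries, lower in cKO within each number, and 6 of 6 tested markers had negative log2 fold changes (median -0.49). The gamma delta T cell markers summed to 175 to 246 in cKO and 274 to 337 in control libraries, without overlap. Myeloid markers summed to 105 to 187 and 117 to 142, dendritic cell markers to 290 to 361 and 250 to 475, and regulatory T cell markers to 33818 to 38553 and 36136 to 41789. Most of the last sum was Il2ra, which activated T cells make in general. Foxp3, the defining factor of regulatory T cells, had 216, 227 and 210 normalised counts in cKO against 282, 263 and 230 in control libraries, without overlap (log2 fold change -0.24, SE 0.12, adjusted p = 0.978 by limma). The part of such cells in the values of the 9 genes was not tested.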

How the data were processed

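The authors deposited 1 table of signal values: whole reads per gene over a scaling factor of the library, written here as normalised counts. In every library 100% of the values were whole multiples of 1 step (tolerance 0.01), which gave the reads back. The submitters' processing notes name STAR, HTSeq, DESeq2 and mm10. Their versions, the annotation and the strand setting were not stated. GENCODE M21 (GRCm38) lists antisense genes that share exon bases with Foxo1, Lef1 and Bach2, so counts of these 3 can include antisense reads. Libraries were grouped by the labels.

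The filter kept genes whose value exceeded 10 in 3 or more libraries. Testing used limma-trend (R 4.3.3, limma 3.58.1) on log2(value + 1) with a term for genotype alone. P-values were adjusted over all genes kept by the Benjamini-Hochberg method. Fold changes on this scale understate those of low genes. The scripts were tested on simulated data. Alternatives were other scalings, filters and pseudocounts, array weights, the replicate block, a Y-linked covariate, each library left out, and, on the recovered reads, edgeR 4.0.16, DESeq2 1.42.0 and limma-voom.

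The replicate numbers come from the labels, which state no pairing. Deviations from group means of libraries numbered 1, 2 and 3 correlated at 0.579, 0.458 and 0.188. All were over 0.1, so the numbers were treated as pairs in the block, though cKO 3 correlated better with control 2 (0.272). Deviations cancel out within each group, so these correlations are not independent of each other. With the libraries numbered 1 apart in both groups, they cannot show that numbers 2 and 3 were true pairs.

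The 9 genes and all lists were chosen with earlier results of these data known. From a list, some of its 4 most abundant genes were named, since none was called, besides genes stated as picked for their values or role. Fixed checks were Sdhc, Ifng, Tbx21, Cd4, Cd3e and Xist, besides 1 not reported here, and the 5 genes most like the mean of the 9 were also named.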

Additional observations from a re-analysis of the deposited data

How the results depend on the processing

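None of the 9 genes passed in any of 21 alternative settings, where the lowest adjusted p was 0.180 (S1pr1 with the Y-linked covariate). S1pr1, Ccr7, Klf2 and Bach2 kept a positive log2 fold change in all of them, at 0.14 to 0.29, 0.09 to 0.17, 0.06 to 0.15 and 0.05 to 0.20. Directions turned for the other 5. Tcf7 was 0.017 with upper-quartile scaling, 0.0030 with array weights and 0.016 without control 1 and cKO 1. With the Y-linked covariate Lef1 was -0.059, Id3 -0.024 and Il7r 0.080, and without control 1 and cKO 1 Id3 was -0.030. With 1 library left out at a time, values ran from -0.081 to 0.016 for Tcf7, -0.031 to 0.12 for Lef1, -0.054 to 0.19 for Id3, -0.26 to 0.048 for Il7r and -0.026 to 0.12 for Foxo1. Il7r turned without control 1 and Foxo1 without control 3, while Tcf7, Lef1 and Id3 turned without control 1 or cKO 3. The cause was not tested.

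Genes called over the whole table numbered 0 on genotype alone with limma (445 at an unadjusted p under 0.05), with edgeR (455, S1pr1 among them) and with limma-voom. They were 2 with DESeq2, 1 with array weights, 1 with the replicate block in limma, 1 with the block in edgeR, 826 with the Y-linked covariate and 3 without control 1 and cKO 1. With 1 library left out they ran from 0 to 1, the 1 without cKO 1. Of the 9 genes, 2 had groups without overlap, beside 10.2% of tested genes. They were 4 with upper-quartile scaling (9.98% of tested genes), 2 to 4 with 1 library left out (15.4% to 25.8%) and 5 without control 1 and cKO 1 (38.6%), so these higher counts came with higher shares over the table where libraries were left out. The block in edgeR and the fit without control 1 and cKO 1 were chosen after seeing the data. The block changed no call among the 9. The 9 genes had 313 reads or more in each library, and with 3 libraries a group their 95% intervals still spanned folds of 0.711 to 1.34.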
